A study of Mus musculus with 8 samples.

Results

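The 6 genes described here encode enzymes that make serine and glycine and, with *Srr*, serine racemase, which acts on L-serine. They were taken by name as the pathway of the deleted enzyme: *Phgdh*, *Psat1*, *Psph*, *Shmt1*, *Shmt2* and *Srr*, 6 of the 18635 genes in the deposited table. All 6 passed the filter on low values (a mean normalized count of at least 10 over the 8 samples), which left 13629 genes for testing. RNA was sequenced from bone marrow-derived macrophages (BMDMs), grown from mouse marrow with a supernatant of L929 cells and then kept for 24 h in medium conditioned by AE17, a murine mesothelioma cell line. Macrophages treated in this way are called TEMs here. All mice were young adults on a C57BL/6 background, and both groups carried *Phgdh* alleles flanked by loxP sites (*Phgdh* fl/fl). The 4 samples of *Phgdh* fl/fl TEMs had 2 intact *Cx3cr1* alleles, and the submitters label them WT although they carry the floxed alleles. The other 4, *Phgdh* fl/fl *Cx3cr1*-Cre TEMs, carried the Cre recombinase in 1 *Cx3cr1* allele, so that Cre follows the promoter of that chemokine receptor and the gene itself is left with 1 allele. The difference between the groups is therefore that of the *Phgdh* deletion together with Cre and the loss of a *Cx3cr1* allele, and these cannot be told apart. No samples without conditioned medium and no samples with Cre but without floxed alleles were analysed here. The series speaks of biological replicates, and the labels do not say which mouse each sample came from, so that p-values measure the spread between these samples.

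The serine synthesis pathway branches from glycolysis at 3-phosphoglycerate. PHGDH oxidizes it to 3-phosphohydroxypyruvate, PSAT1 transfers an amino group from glutamate to give phosphoserine, and PSPH removes the phosphate to leave serine. SHMT1 in the cytosol and SHMT2 in mitochondria split serine into glycine and a one-carbon unit carried by tetrahydrofolate, and serine racemase, encoded by *Srr*, converts L-serine to D-serine and can also break serine down to pyruvate.

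Reads counted on genes lay between 38219563 and 47027420 per sample. Each deposited value is a gene's reads over the size factor of its sample, called a normalized count here, and whole reads were recovered for 100% of them. All 8 macrophage markers looked at (*Adgre1*, *Itgam*, *Csf1r*, *Cd68*, *Lyz2*, *Fcgr1*, *Mertk* and *Cd14*) were above 0 in each sample, with summed normalized counts between 1030176 and 1121134 in *Phgdh* fl/fl TEMs and between 1008585 and 1085172 in *Phgdh* fl/fl *Cx3cr1*-Cre TEMs. Most of this sum is *Lyz2*. *Fcgr1* (log2 fold change -0.40, limma adjusted p = 7.4e-12), *Cd14* (-0.32, limma adjusted p = 1.9e-10), *Itgam* (-0.19, limma adjusted p = 7e-06) and *Adgre1* (-0.084, limma adjusted p = 0.0056) were lower with Cre, and the other 4 did not pass. Among all tested genes 20.3% passed in the lower direction. Among markers of other cell types, the neutrophil marker *S100a8* lay between 467 and 575 in *Phgdh* fl/fl TEMs and between 576 and 631 with Cre, and the other 4 of 5 neutrophil markers were not analysed here. The sum of the B cell markers *Cd79b* and *Ms4a1*, 2 of the 4 looked at, lay between 197 and 253 without Cre and between 131 and 167 with it, and *Ms4a1* was at 0 in some samples of each group. For *Flt3* and *Zbtb46*, 2 of 3 dendritic cell markers, the sums lay between 7.24 and 26.7 and between 22.9 and 38.6. *Cd247*, 1 of 4 T cell markers, lay between 6.51 and 26.7 and between 2.25 and 13.5. Sums of 4 of the 5 fibroblast markers lay between 22.1 and 36.2 and between 19.7 and 49.6, and *Upk3b*, 1 of 4 mesothelial markers, did not exceed 5.08. *Cd79b* was lower with Cre (log2 fold change -0.63, limma adjusted p = 2.9e-05) and *S100a8* higher (0.23, limma adjusted p = 0.0044). The others of these that were tested, *Zbtb46*, *Cd247* and *Col1a2*, did not pass. The part of these cells in the results was not tested. In bulk RNA, fewer cells of a type and less RNA per cell cannot be told apart. The mean level of *Cx3cr1* was 1075 ± 94.2 normalized counts without Cre and 659.8 ± 32.2 with Cre (SD, n = 4 each), a ratio of 0.614.

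The genotypes were compared to ask how the transcripts of the pathway stood when its first enzyme was deleted. With Cre the mean of *Phgdh* fell by 76.9%, that of *Psph* fell by 19.9%, that of *Shmt2* fell by 15.9% and that of *Psat1* fell by 12.9%, and each had an adjusted p under 0.05. *Srr* rose by 13.2%, also with an adjusted p under 0.05. The change of *Shmt1* was -18.3% and did not pass. Thus 4 of the 6 genes passed in the lower direction, where 20.3% of all tested genes did, and 1 of 6 passed in the higher direction, where 20.8% did. In either direction 5 of 6 passed, beside 41% of all tested genes, so that a call on its own was common in these samples. The median log2 fold change of the 6 was -0.27, and that of all tested genes was -0.0018. These counts and this median include *Phgdh*, the targeted gene, whose fall follows from the design. Apart from it, *Psat1*, *Psph* and *Shmt2* passed in the lower direction and *Srr* in the higher, with *Psat1* the least firm. Here and below, a log2 fold change is that of *Phgdh* fl/fl *Cx3cr1*-Cre over *Phgdh* fl/fl TEMs on the scale of log2(normalized count + 1), which understates changes of genes with few reads. The test was limma with Benjamini-Hochberg adjustment over all tested genes.

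**Figure D1:**
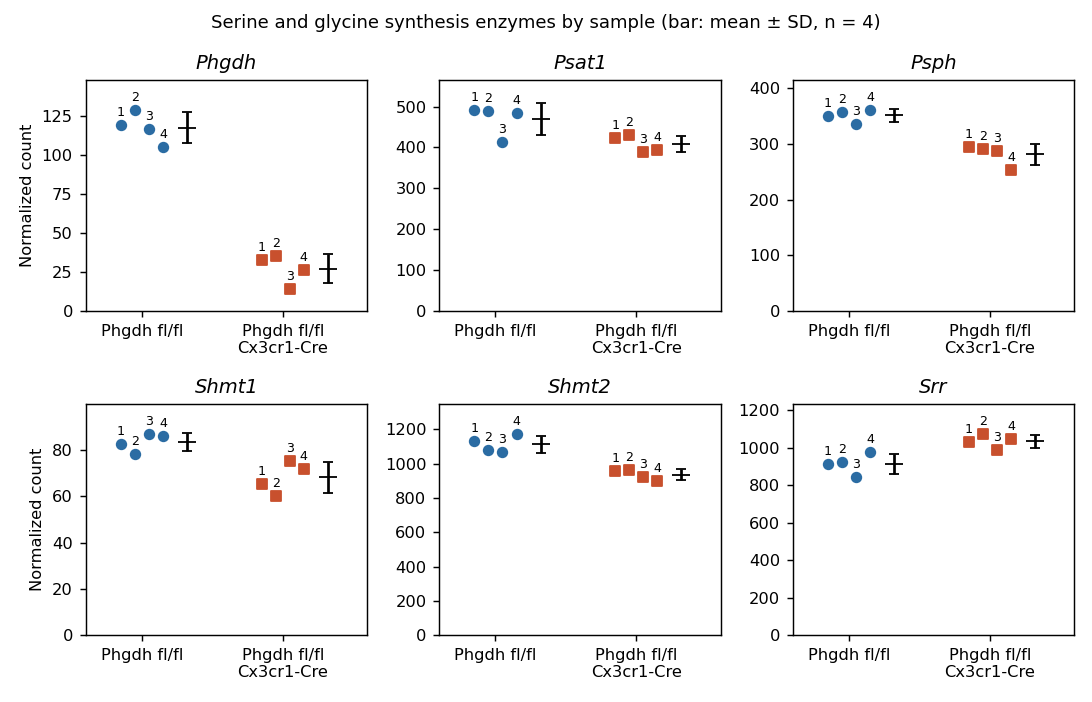
Normalized counts of the 6 enzymes (vertical axis, from 0) in each sample of *Phgdh* fl/fl TEMs (circles) and *Phgdh* fl/fl *Cx3cr1*-Cre TEMs (squares), numbered by replicate, with the mean and SD of 4 samples beside them. The groups are apart for all genes except *Psat1*, where replicate 3 of *Phgdh* fl/fl TEMs (412) lies below 2 samples with Cre.

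Promoter sequences are shown for 3 genes that passed the test and are not themselves deleted, 2 that were lower with Cre (*Psph* and *Shmt2*) and the 1 that was higher (*Srr*). The windows hold 250 bases before and 50 bases after the start site and come from RefSeq on GRCm38.p6, which is the build mm10 of the files, and each of the 6 genes was matched (*Psat1* to 2 windows). All of these genes lie on the minus strand, and the sequences read 5′ to 3′ in the direction of the gene. Capitals mark each match on either strand to GGGCGG, the GC box bound by SP family factors, so that CCGCCC is a match on the other strand. They are given in the order *Psph* (chr5:129787204-129787503), *Shmt2* (chr10:127522395-127522694) and *Srr* (chr11:74925899-74926198).
Psph: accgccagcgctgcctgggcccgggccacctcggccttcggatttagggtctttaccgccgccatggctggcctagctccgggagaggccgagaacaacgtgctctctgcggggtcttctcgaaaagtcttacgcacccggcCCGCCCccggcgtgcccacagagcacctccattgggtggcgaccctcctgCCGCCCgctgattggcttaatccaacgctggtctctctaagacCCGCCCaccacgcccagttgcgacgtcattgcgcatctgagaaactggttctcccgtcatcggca
Shmt2: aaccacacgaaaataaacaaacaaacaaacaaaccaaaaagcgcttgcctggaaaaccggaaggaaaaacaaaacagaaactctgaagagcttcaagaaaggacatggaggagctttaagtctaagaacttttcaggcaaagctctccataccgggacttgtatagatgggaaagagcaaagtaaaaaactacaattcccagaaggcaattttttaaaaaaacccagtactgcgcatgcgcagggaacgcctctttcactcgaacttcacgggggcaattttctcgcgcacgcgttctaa
Srr: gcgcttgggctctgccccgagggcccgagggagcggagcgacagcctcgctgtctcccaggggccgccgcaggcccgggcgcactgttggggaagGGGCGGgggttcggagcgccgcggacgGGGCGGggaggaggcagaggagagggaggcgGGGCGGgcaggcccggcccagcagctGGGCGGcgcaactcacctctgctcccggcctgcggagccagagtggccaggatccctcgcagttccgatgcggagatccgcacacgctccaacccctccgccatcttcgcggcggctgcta
The *Psph* window held 3 matches, that of *Srr* 4 and that of *Shmt2* 0, and 35.7% of the 32851 promoters of the same length held at least 1. *Shmt1* had 4, of which 2 overlap at 1 base, one of the *Psat1* windows had 2, and *Phgdh* and the other *Psat1* window had 0. Bases G and C made up 65% of the *Psph* window, 42.7% of that of *Shmt2* and 75.3% of that of *Srr*. The *Psph* window lies wholly within *Cct6a*, and the *Srr* window wholly within *Smg6*, both genes on the other strand. The matches and the G and C content of these windows therefore do not belong to *Psph* or *Srr* alone. No member window held TGATGNAA, the core of the amino acid response element bound by ATF4 with C/EBP (3.97% of promoters), or CACGTG, the E-box (7.15%). The 2 directions of change were thus both found among windows with GC boxes, and a match is a description of these letters only.

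*Phgdh* (ENSMUSG00000053398) lies on chromosome 3 of mm10 from 98313170 to 98339990, with 12 exons in its longest coding transcript. As the targeted gene it checks the labels. Its normalized counts were 119, 129, 117 and 105 in *Phgdh* fl/fl TEMs and 32.6, 35.3, 14.2 and 26.3 in *Phgdh* fl/fl *Cx3cr1*-Cre TEMs. Every sample with Cre lay below every sample without it, and none was at 0. Between 14 and 34 reads of the gene were counted per sample with Cre, against 110 to 140 without. The log2 fold change was -2.15 (SE 0.21, 95% interval -2.58 to -1.71, limma adjusted p = 5.1e-08), which was the 19th largest in size of 13629. With Cre, the samples varied more around their mean than without, with a coefficient of variation of 34.6% against 8.36%. Counting error alone would give 19.6% and 9.03%. Replicate 3 with Cre was the lowest, and without it the log2 fold change was -1.88.

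The remaining reads cannot all be assigned to one source. Of the windows of 75 bases, the read length, along the longest coding *Phgdh* transcript (1893 bases), 82.4% also occur with at most 2 mismatches in at least 1 of 23 other annotated genes, most of them processed pseudogenes. *Gm7901* alone holds 73.1% of them and *Gm9347* 59%. These 23 genes were not analysed here, and how reads with several equally good positions were counted is not given in the sources used here. Which exons are flanked by loxP sites is not given there either. The level of *Phgdh* in both groups is therefore uncertain, and the part of copies in the residual count was not tested.

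The gene of the second step, *Psat1* (ENSMUSG00000024640, chromosome 19 from 15904678 to 15947337), had normalized counts of 492, 489.7, 412 and 484 in *Phgdh* fl/fl TEMs. With Cre they were 422, 430.3, 389 and 394. The groups overlapped, because replicate 3 without Cre was lower than replicates 1 and 2 with Cre, while the other 3 samples without Cre were above all samples with it. The log2 fold change was -0.20 (SE 0.065, 95% interval -0.33 to -0.062, limma adjusted p = 0.0187), and an exact permutation test (two-sided, 70 labelings) gave p = 0.0857. This call was the least firm of the 5. The adjusted p rose to between 0.0537 and 0.0593 when replicate 2 or 4 without Cre, or replicate 3 or 4 with Cre, was left out. Without replicate 3 of *Phgdh* fl/fl TEMs the log2 fold change was -0.26 (limma adjusted p = 0.0022).

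*Psph*, the gene of the last step (ENSMUSG00000029446, chromosome 5 from 129765558 to 129787449), had values of 350.5, 357, 335 and 361 without Cre and 294, 289.95, 288 and 253 with Cre. All samples with Cre were lower than all samples without it. Its log2 fold change was -0.32 (SE 0.068, 95% interval -0.46 to -0.18, limma adjusted p = 0.00064), and -0.27 without replicate 4 with Cre, the lowest of its group. *Psph* overlaps *Cct6a*, a subunit of the chaperonin CCT, on the other strand, and 22.8% of the windows of 75 bases of its longest coding transcript are shared with that gene. *Cct6a*, named here for this overlap after its values were seen, had 8199 ± 57.5 normalized counts without Cre and 7156 ± 80.7 with it (SD, n = 4 each). This gave a log2 fold change of -0.20 (SE 0.022, limma adjusted p = 3.1e-07), in the same direction as *Psph*. The library kit keeps strand, but the strand setting of the counting is not given in the sources used here, and the part of *Cct6a* reads in the *Psph* values was not tested.

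Of the hydroxymethyltransferase genes, *Shmt2* passed the test and *Shmt1* did not. *Shmt2* (ENSMUSG00000025403, chromosome 10 from 127517123 to 127522444) had normalized counts of 1132, 1079, 1067 and 1171 in *Phgdh* fl/fl TEMs and 959, 962, 922 and 898 in *Phgdh* fl/fl *Cx3cr1*-Cre TEMs. Even the lowest sample without Cre was above the highest with Cre. The log2 fold change was -0.25 (SE 0.042, 95% interval -0.34 to -0.16, limma adjusted p = 5.7e-05). Among the 5 genes other than *Phgdh* this was the smallest standard error. Its transcript shares 4.15% of its windows, with the pseudogene *Gm15544*, which had 1.67 ± 1.59 normalized counts without Cre and 0.79 ± 0.984 with it (SD, n = 4 each).

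*Shmt1* (ENSMUSG00000020534, chromosome 11 from 60788104 to 60811718) had values of 82.7, 78.2, 86.8 and 85.9 without Cre and 65.3, 60.3, 75.2 and 72 with Cre. These groups did not overlap either. Over all tested genes 36.7% had groups that did not overlap, as had 5 of the 6 enzymes, the targeted *Phgdh* among them. The log2 fold change of *Shmt1* was -0.29 (SE 0.13, 95% interval -0.56 to -0.025), larger in size than that of *Shmt2*, with a limma adjusted p of 0.0742. With 58 to 90 reads per sample, counting error alone gives a coefficient of variation of 10.7% without Cre and 12.3% with it, and the observed coefficients were 4.64% and 9.84%. It passed with quantile normalization (limma adjusted p = 0.0441) and with one variance prior for all genes (limma adjusted p = 0.0188). *Shmt1* shares 3.95% of its windows with *Smcr8*, which it overlaps on the other strand and which had a log2 fold change of 0.28 (SE 0.038, limma adjusted p = 3.6e-06), in the opposite direction.

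The ratio of *Shmt2* to *Shmt1* within a sample needs no scaling between samples. Per length, *Shmt2* stood 16.7 times above *Shmt1* in *Phgdh* fl/fl TEMs and 17.2 times above it in *Phgdh* fl/fl *Cx3cr1*-Cre TEMs (geometric means). The log2 ratio was 4.06 ± 0.079 (SD, n = 4) without Cre and 4.10 ± 0.19 (SD, n = 4) with Cre. The difference of 0.045 was smaller than the SD of either group, with p = 0.714 in an exact two-sided permutation test (0.714 after adjustment over the 2 ratios tested). For *Psat1* over *Psph* the log2 ratio was 0.44 ± 0.082 (SD, n = 4) without Cre and 0.57 ± 0.085 (SD, n = 4) with Cre. The difference of 0.13 gave p = 0.0857 (exact two-sided permutation test, 0.171 after adjustment), where 0.0286 is the smallest p that 4 samples against 4 allow.

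*Srr* (ENSMUSG00000001323, chromosome 11 from 74906359 to 74925948) was the only one of the 6 enzymes whose level was higher with Cre. Its normalized counts were 915, 924, 846 and 976 in *Phgdh* fl/fl TEMs and 1032, 1073, 990.2 and 1048 in *Phgdh* fl/fl *Cx3cr1*-Cre TEMs. Even the highest sample without Cre was below the lowest with Cre, by a small margin. The log2 fold change was 0.18 (SE 0.045, 95% interval 0.085 to 0.27, limma adjusted p = 0.0029). The gene overlaps *Tsr1*, which encodes a factor of ribosome maturation, tail to tail on the other strand, and 27% of the windows of its longest coding transcript (3699 bases) are shared with that gene. *Tsr1* moved the other way, with 1559 ± 54.7 normalized counts without Cre and 1148 ± 53.6 with it (SD, n = 4 each). Its log2 fold change was -0.44 (SE 0.040, limma adjusted p = 1.7e-08). The part of *Tsr1* reads in the *Srr* values was not tested. *Smg6*, which overlaps *Srr* at the start of the gene, had a log2 fold change of 0.075 (SE 0.039, limma adjusted p = 0.14).

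**Figure D2:**
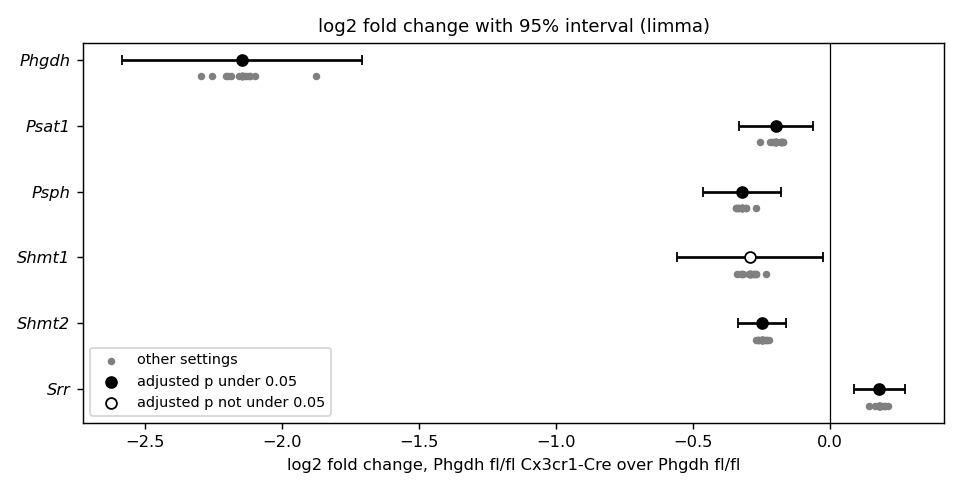
Log2 fold change of each enzyme (horizontal axis) with its 95% interval from limma, filled where the adjusted p was under 0.05. The grey points below each are the values under the 17 other settings, and none crosses 0: *Phgdh* lies between -2.29 and -1.88, *Srr* between 0.14 and 0.21, and *Shmt1*, the open point, between -0.34 and -0.23.

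Levels of different genes can be compared only per length. Counted reads scaled by the length of all exons and the total of the sample (FPKM, computed here from the recovered reads) put *Shmt2* first in *Phgdh* fl/fl TEMs, at 8.25 ± 0.36 (SD, n = 4). *Srr* followed at 4.63 ± 0.273, *Psat1* at 2.55 ± 0.21, *Psph* at 1.87 ± 0.0621, *Phgdh* at 1.09 ± 0.0923 and *Shmt1* at 0.496 ± 0.0223. No neighbours in this order overlapped in range between the 4 samples. The place of *Phgdh* in this order, and every share or order below that includes it, rests on its uncertain level (82.4% of windows shared with other genes).

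With Cre the order was the same but for the last 2 places. *Shmt1* stood at 0.409 ± 0.0402 FPKM and *Phgdh* below it at 0.254 ± 0.0881 (SD, n = 4 each), and their ranges did not overlap. With the length of the longest transcript in place of all exons, the orders of both groups were unchanged. *Phgdh* made up 19.8% ± 1.6 (SD, n = 4) of the summed FPKM of *Phgdh*, *Psat1* and *Psph* without Cre and 6.28% ± 1.93 (SD, n = 4) with Cre, as counted and with the same limit. The share of *Shmt2* in the sum of both hydroxymethyltransferases was 94.3% ± 0.3 and 94.5% ± 0.662 (SD, n = 4 each).

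**Figure D3:**
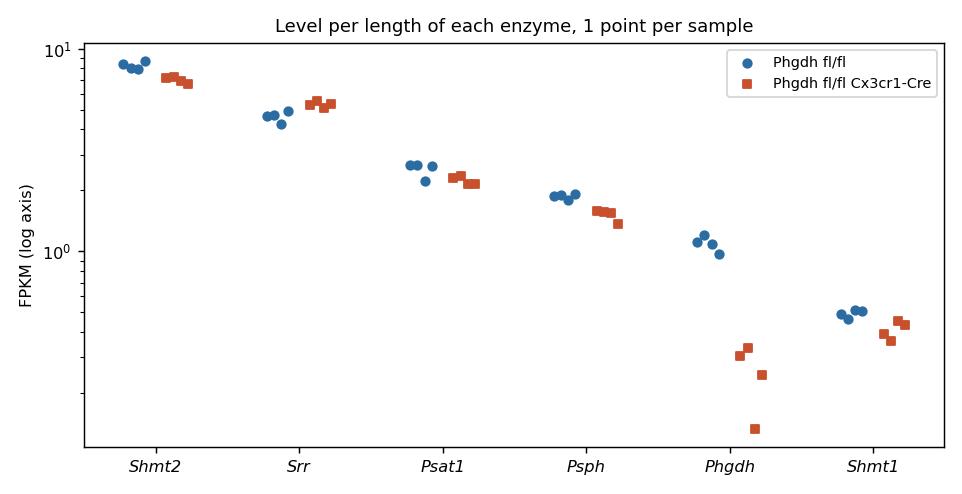
FPKM of each enzyme on a log axis, 1 point per sample (circles, *Phgdh* fl/fl TEMs; squares, *Phgdh* fl/fl *Cx3cr1*-Cre TEMs), in the order of the levels without Cre. *Phgdh* drops from above *Shmt1* (mean 1.09) to below it (0.254 against 0.409), while the other genes keep their order, and the level of *Phgdh* is uncertain in both groups, since 82.4% of its windows are shared with other genes.

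The genes closest in pattern to each enzyme were found among all tested genes by the root mean square distance of the 8 log2 values, each taken relative to the gene's mean in *Phgdh* fl/fl TEMs. For *Phgdh* no gene came close. The nearest were *Gm47445* (distance 0.44) and *Arg1*, the arginase of alternatively activated macrophages (0.46). The other enzymes had nearer genes. The distance holds the change between genotypes as well as the spread of samples, so genes of like fold change come near. Shared regulation was not tested. *Lbh* (0.027) and *Cox7c*, a subunit of cytochrome c oxidase (0.041), were nearest to *Psph*, and *Atp5g1*, a subunit of ATP synthase (0.034), and *Pold1*, the catalytic subunit of DNA polymerase delta (0.038), to *Shmt2*. *Cd320*, the receptor for transcobalamin (0.042), was nearest to *Shmt1*. For *Psat1* they were *Obi1* (0.037) and *1700010I14Rik* (0.042), and for *Srr* the nucleoside transporter *Slc29a1* (0.033) and *Vwa8* (0.039).

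Genes next to the enzymes on the chromosome did not share one direction. Of the 12 nearest genes annotated as protein-coding, 1 on each side, 9 were tested. *Cct6a*, which overlaps *Psph* and was lower with Cre, is annotated as a processed transcript and is not among them. *Nipsnap2*, next to *Psph*, was lower (log2 fold change -0.13, SE 0.032, limma adjusted p = 0.003), as was *Tsr1*, and *Smcr8* was higher. The other 6 did not pass, where 41% of all tested genes passed in either direction. Among the 6 were *Cep78* beside *Psat1* (-0.010) and *Zfp697* beside *Phgdh* (0.25, SE 0.29, with under 20 normalized counts on average in each group). *Ndufa4l2* and *Nxph4* were not analysed here.

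Of 9 listed genes of the lower part of glycolysis, around the branch point at 3-phosphoglycerate, 7 were tested, of which 3 were lower and 2 higher with Cre and 2 did not pass, beside 20.3% lower and 20.8% higher among all tested genes. Their median log2 fold change was -0.060. *Eno1*, the main enolase, had 17399 ± 488 normalized counts without Cre and 13602 ± 482 with it (SD, n = 4 each). It fell by 0.36 on the log2 scale (SE 0.026, limma adjusted p = 8.4e-10). *Gapdh*, the glyceraldehyde-3-phosphate dehydrogenase, fell by 0.26 on the log2 scale. The less abundant enolases *Eno3* (0.37, SE 0.072, limma adjusted p = 0.00027) and *Eno2* (0.23, SE 0.077, limma adjusted p = 0.0236) were higher, from 247 and 301 normalized counts without Cre. The groups of *Eno2* overlapped. The large and the small enolase transcripts thus moved in opposite directions.

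Downstream, the folate enzymes and carriers take up the one-carbon unit from SHMT. Of 17 listed, 16 were tested, with 5 lower, 1 higher and 10 that did not pass (6 of 16, beside 41% of all tested genes), and a median log2 fold change of -0.020. *Tyms*, the thymidylate synthase, fell by 0.32 (SE 0.098, limma adjusted p = 0.0109), with groups that overlapped. *Mthfd1*, *Mthfd1l* and *Mthfd2*, which interconvert folates in the cytosol and in mitochondria, also passed in the lower direction, with overlapping groups for *Mthfd2*.

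Among genes that use or break down serine and glycine, 16 of the 30 listed were tested, of which 4 were lower and 3 higher (7 of 16, beside 41% of all tested genes), with a median log2 fold change of -0.027. *Gcsh*, the H protein of the glycine cleavage system, had 2026, 1941, 2071 and 2115 normalized counts without Cre and 1509, 1541, 1592 and 1573 with it. Its groups were far apart, with a log2 fold change of -0.39 (SE 0.034, limma adjusted p = 9.3e-09). *Gatm*, the first enzyme of creatine synthesis from glycine, fell by 0.32 (SE 0.039, limma adjusted p = 8.2e-07). *Alas1*, which joins glycine to succinyl-CoA in heme synthesis, was higher by 0.084 (SE 0.023, limma adjusted p = 0.006). *Cth*, the cystathionine gamma-lyase of cysteine synthesis, was higher by 0.91 (SE 0.32, limma adjusted p = 0.0264), with 18 ± 6.33 normalized counts without Cre and 35.5 ± 15.1 with it (SD, n = 4 each) and groups that overlapped. Without replicate 1 or replicate 4 with Cre, 4 genes of this list passed in place of 7.

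The list of carriers holds transporters of serine and glycine and the cystine carrier *Slc7a11*. Of 16 listed, 11 were tested, with 3 lower and 4 higher (7 of 11, beside 41% of all tested genes), and with a median log2 fold change of 0.058. *Slc7a11*, which exports glutamate in exchange for cystine, had 6041, 5621, 5449.7 and 5235 normalized counts without Cre and 8731, 8631, 8884 and 8742 with it. All samples with Cre were well above the others, and the log2 fold change was 0.65 (SE 0.032, limma adjusted p = 1.6e-12). *Slc6a9*, the glycine transporter GlyT1, was higher by 0.56 (SE 0.063, limma adjusted p = 3.9e-07). The mitochondrial carrier *Sfxn1*, which brings serine to SHMT2, fell by 0.19 (SE 0.037, limma adjusted p = 0.00025), and *Sfxn3*, of the same family, fell by 0.26 (SE 0.033, limma adjusted p = 1.7e-06).

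Of the 9 transcriptional and upstream regulators tested of 10 listed, 1 was lower, 4 were higher and 4 did not pass (5 of 9 called, beside 41% of all tested genes), with a median log2 fold change of 0.023. *Myc*, a transcription factor known to raise genes of serine synthesis, had 1271 ± 51.2 normalized counts without Cre and 977 ± 25.5 with it (SD, n = 4 each). It fell by 0.38 on the log2 scale (SE 0.040, limma adjusted p = 1.3e-07). *Ddit3*, a transcription factor of the integrated stress response, was higher by 0.36 (SE 0.054, limma adjusted p = 1.5e-05). *Nfe2l2*, the oxidative stress regulator NRF2, was higher by 0.22 (SE 0.024, limma adjusted p = 1.7e-07). *Atf4*, which acts on the amino acid response element, had a log2 fold change of -0.047 (SE 0.024, limma adjusted p = 0.121), and is named outside the rule because its motif was searched.

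**Figure D4:**
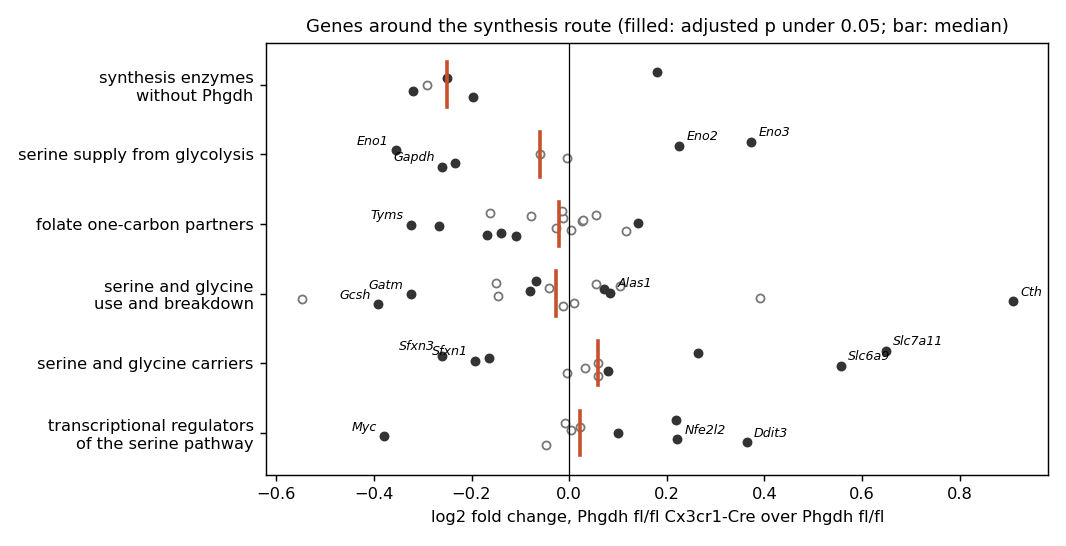
Log2 fold change (horizontal axis) of each tested gene in the 5 lists and of the synthesis enzymes other than *Phgdh* (*Srr* among them). Points are filled where the limma adjusted p was under 0.05, with the median as a bar. The list medians lie between -0.060 and 0.058, and the names mark genes among the 2 lowest and the 2 highest that passed in each list.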

How the data were processed

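RNA-seq of 8 samples, 4 per genotype, was analysed. The authors prepared directional libraries (NEBNext Ultra Directional), sequenced single-end reads of 75 bases, mapped them to mm10 with TopHat2, counted them per gene with HTSeq 0.6 and compared genotypes with DESeq2, as the submitters' processing notes and the methods say. The strand setting of the counting and the annotation version are not given in the sources used here. What the authors deposited is a signal: the count of a gene over the size factor of its sample, although the methods speak of FPKM. The deposited fold changes, standard errors, Wald statistics and p-values are the authors' comparison and were not used.

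Whole reads (within 0.1 of a whole number) were recovered for 100% of the values, and totals lay between 38219563 and 47027420 per sample. Intervals from counting cover counting error only. Samples of a genotype differed beyond sampling noise (chi-square per gene 1.75 to 5.72), more than repeat reads of 1 library would. This is not a measure of sample quality, and all 8 were kept. Replicate 1 of *Phgdh* fl/fl TEMs stood furthest from its group, at 5.03 to 5.72, beside 2.41 to 3.64 between the others of that group. The comparison used limma 3.58.1 under R 4.3.3 (eBayes with trend, two-sided, Benjamini-Hochberg) on log2(normalized count + 1) for the genes averaging 10 normalized counts or more, without covariates. Exact permutation tests used scipy 1.17.1. Positions and lengths came from GENCODE M21, which held 18629 of the 18635 genes, and shared windows were read along transcripts found with blastn 2.17.0. Alternatives were no filter, a filter at 50, a pseudocount of 0.1, quantile normalization, scaling to total reads, eBayes without trend, edgeR 4.0.16, DESeq2 1.42.0, a replicate block and leaving out each sample. On simulated counts for the 13629 genes of this comparison, limma called 73 of 100 genes changed by 0.5 and 91 of 100 changed by 1 on the log2 scale, and 7 unchanged genes. Far fewer genes were changed there than the 41% called in the data, so these rates do not carry over. Changes as small as those of the enzymes other than *Phgdh* were not simulated.

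The genes and lists were chosen with earlier results of these data known. Named are the 6 enzymes, the 2 lowest and 2 highest genes of each list with an adjusted p under 0.05, the 2 genes nearest in pattern to each enzyme, its nearest protein-coding neighbours, and *Cx3cr1*. *Cct6a*, *Gm15544* and *Atf4* were added for the reasons given with them, and *Mthfd1*, *Mthfd1l* and *Mthfd2*, the cell type markers and genes sharing windows with *Phgdh* were named outside the rule. The values of 3 genes that this rule names are not reported here on their own.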

Additional observations from a re-analysis of the deposited data

Results flagged for a closer look

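In 3 of the 16 groups of 4 values looked at (6 enzymes and 2 ratios in each genotype), 1 sample stood apart from the other 3 by Dixon's criterion, which flags about 1 in 20 groups by chance. *Psat1* was lowest in replicate 3 of *Phgdh* fl/fl TEMs, with 412.45 normalized counts, and its gap to the next sample was 0.898 of the range of the group. *Psph* was lowest in replicate 4 of *Phgdh* fl/fl *Cx3cr1*-Cre TEMs, with 252.9 normalized counts and a gap of 0.854 of the range. The log2 ratio of *Shmt2* to *Shmt1* was lowest in replicate 3 of *Phgdh* fl/fl TEMs, at 3.94, with a gap of 0.902 of the range. Without that replicate the difference of the log2 ratios between genotypes was 0.0061.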

How the results depend on the processing

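The directions of all 6 enzymes held under all 17 alternatives, and the calls of *Phgdh*, *Psph*, *Shmt2* and *Srr* did too. *Psat1* (log2 fold change -0.20) lost its call with eBayes without trend (limma adjusted p = 0.0534) and with 4 of the 8 samples left out, where its log2 fold change lay between -0.26 and -0.17 over all 8. *Shmt1* passed with eBayes without trend (log2 fold change -0.29, limma adjusted p = 0.0188) and with quantile normalization (-0.32, limma adjusted p = 0.0441). The cause was not tested. When single samples were left out, the list of serine and glycine use and breakdown had 4 to 7 called genes, and the difference of the *Shmt2* to *Shmt1* log2 ratios lay between -0.026 and 0.10, below 0 only without replicate 2 of *Phgdh* fl/fl *Cx3cr1*-Cre TEMs (-0.026). No alternative for a ratio with a sample left out could pass, since 3 against 4 samples allow no p under 0.0571. The number of called genes lay between 4930 and 5917 (5594 as reported), with 5608 by edgeR and 5066 by DESeq2 on the recovered reads. Replicate numbers are in the labels, but the correlations of same-numbered samples, of deviations from the group mean, were only 0.063 to 0.13. Those of other numbers lay between -0.12 and 0.13, and 5 of 8 samples correlated best with their own number. The numbers were thus not taken as pairing. Still, replicates 1 and 4 of one genotype correlated positively with replicates 1 and 4 of the other. Replicates 2 and 3 did likewise, and correlations across these sets were negative. The labels name no shared factor, and its part in the results was not tested. With a replicate block 5597 genes were called, the log2 fold changes were those reported, and no call of an enzyme changed (limma adjusted p = 0.0122 for *Psat1* and 0.086 for *Shmt1*). For the ratios of *Shmt2* to *Shmt1* and *Psat1* to *Psph*, the exact sign-flip test over the 4 pairs gave p = 0.75 and 0.125. The smallest p that 4 pairs allow in this test is 0.125, so it could not pass. *Phgdh* with Cre and *Shmt1* have the fewest reads, and the effect of depth was not tested.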
